A study of Mus musculus with 6 samples.

Results

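Genes of iron handling and ferroptosis were followed in B16 mouse melanoma cells, in the subclones named Tyr-L and Tyr-H. The 10 genes were *Tfrc*, *Slc11a2*, *Fth1*, *Ftl1*, *Ncoa4*, *Slc40a1*, *Ireb2*, *Aco1*, *Acsl4* and *Aifm2*, taken by name from 20788 genes listed in at least 1 library. All 10 were listed in all 6 libraries, and all 10 passed the filter on low values. B16 is a pigmented line of C57BL/6 origin. The labels call Tyr-L cells those with low and Tyr-H cells those with high tyrosinase activity, and name no agent or allele for either group. Both were kept in low-glucose DMEM with serum and antibiotics. RNA of 3 libraries of each group was sequenced, from mRNA libraries read as pairs of 150 bp. The sources do not say whether the 3 libraries came from separate cultures or from several subclones, so the SD and p-values given here measure the spread between these libraries, which may be technical.

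Cells take up iron bound to transferrin through the transferrin receptor and endosomal transporters, store it in ferritin, which is a shell of heavy and light chains, and release it through ferroportin. Iron regulatory proteins set the balance after transcription, by binding hairpins called iron-responsive elements in the untranslated regions (UTRs) of mRNAs. Bound to a 5′ UTR they block translation, and bound to the 3′ UTR of the transferrin receptor mRNA they stabilise it. Ferroptosis is a form of cell death that depends on iron and runs through peroxidation of polyunsaturated phospholipids.

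Matches to the iron-responsive element are shown because iron regulatory proteins bind such elements. Binding to these mRNAs was not measured here. The UTRs of all annotated transcripts were searched, on the strand of the transcript, for the letters CAGTGN, which form the loop, with a bulged C and 5 bases of any kind before them, and then for a stem in which the 5 bases before the loop pair with the 5 after it (G with T allowed). The letters alone were found in a UTR of 44.9% of 21802 coding genes and the letters with the full stem in 0.803%. *Tfrc* held 4 such hairpins in its 3′ UTR, and *Fth1*, *Ftl1* and *Slc40a1* held 1 each in the 5′ UTR. Among all coding genes a full stem was found in the 5′ UTR of 0.142% and in the 3′ UTR of 0.66%. The best match of *Slc11a2*, in the 3′ UTR of its transcript Slc11a2-205, paired at 4 of the 5 positions. Sequences are transcript sequences of GENCODE M21 on GRCm38, from 5′ to 3′, with the loop in capitals.
Tfrc, chr16:32631219-32631247, plus strand: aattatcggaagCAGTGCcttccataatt
Tfrc, chr16:32631598-32631626, plus strand: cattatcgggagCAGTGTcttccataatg
Tfrc, chr16:32631663-32631691, plus strand: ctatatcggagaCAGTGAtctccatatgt
Tfrc, chr16:32631710-32631738, plus strand: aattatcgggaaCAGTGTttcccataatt
Fth1, chr19:9982732-9982760, plus strand: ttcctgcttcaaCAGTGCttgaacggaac
Ftl1, chr7:45459779-45459807, minus strand: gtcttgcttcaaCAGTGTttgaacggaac
Slc40a1, chr1:45925465-45925493, minus strand: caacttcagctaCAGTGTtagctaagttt
Slc11a2, chr15:100395153-100395181, minus strand: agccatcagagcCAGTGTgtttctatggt
A match is a description of the letters. In *Ireb2*, *Aifm2* and *Ncoa4* the letters were present in a UTR with at most 2 of the 5 pairs, and in *Aco1* and *Acsl4* no match was found.

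The deposited values are FPKM, fragments scaled by transcript length and by the mapped fragments of the library, so levels of different genes can be compared. A gene not listed in a library was taken as 0, although its absence from the tables used here does not show that it was not expressed. Each library listed between 16813 and 17413 genes, and the tables hold no counts. The most frequent step within a preset window of low values would put the depth at about 19800000 to 23500000 fragments. The window limits in advance the depth that can be found. The depth is also rough, since only 27.5 to 32.2% of low values lay within 0.1 of a whole multiple of that step. *Tyr*, which encodes tyrosinase, ranged from 9.52 to 10.7 FPKM in Tyr-L and from 19.7 to 23.8 FPKM in Tyr-H cells. The 7 melanocyte markers summed to 7340 to 7660 FPKM in Tyr-L and 5440 to 5960 FPKM in Tyr-H libraries, where *Tyr* had risen and the other 6 had fallen (4 after median ratio scaling). Their part in the results was not tested. The sum of 8 macrophage markers was 0.219 to 0.537 FPKM and that of 8 erythroid markers 0.132 to 0.364 FPKM over all 6 libraries, where 6 macrophage markers (*Ptprc*, *Adgre1* and *Csf1r* among them) and 5 erythroid markers (*Alas2* and the 4 globin genes) had no listed value and were summed as 0. The sum of 6 fibroblast markers was 0.959 to 1.19 FPKM, and the highest of 5 hepatocyte marker sums was 0.0813 FPKM.

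In Tyr-H cells *Tfrc*, *Slc11a2* and *Fth1* were higher than in Tyr-L cells by 1.27 to 1.42-fold, *Ireb2* was lower at 0.75 of its Tyr-L level, and the other 6 genes did not pass the test. A gene is said here to rise or fall when its adjusted p was at most 0.05 (limma on log2(FPKM + 0.1), two-sided, Benjamini-Hochberg over 14336 tested genes). Of all tested genes 57.8% passed in this way, 17.9% higher and 39.9% lower in Tyr-H cells, against 4 of the 10 iron genes, 3 higher and 1 lower. With a 2-fold threshold added, 8.75% of tested genes (2.96% higher, 5.78% lower) and 0 of the 10 were called. Higher genes made up 33.9% of all called genes, 48.4% after median ratio scaling, 55.3% after quantile normalization, 52.0% after a correction of each library for transcript GC content and length and 26.2% after rescaling each library to the same total. The groups did not overlap in 6 of the 10 genes, 3 higher and 3 lower, where 64.0% of tested genes did not overlap, 20.2% higher and 43.8% lower. The median log2 fold change was 0.09 over the 10 genes and -0.15 over all tested genes, a shift that depends on how libraries are scaled: it was -0.01 after median ratio scaling and -0.25 after rescaling to the same total. After median ratio scaling 5 of the 10 rose and 1 fell, against 27.9% and 27.0% of tested genes (54.9% in all). After rescaling to the same total 3 rose and 3 fell, against 12.0% and 44.0% (56.0% in all). After quantile normalization 5 rose and 2 fell, against 26.0% and 27.8% (53.8% in all). After the GC and length correction 6 rose and 0 fell (5 and 0 with the replicate block), against 28.4% and 26.0% (54.4% in all). Without Tyr-H replicate 3, *Ftl1* also passed as lower. In bulk RNA a lower level in every cell and fewer cells with the transcript cannot be told apart.

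**Figure D1:**
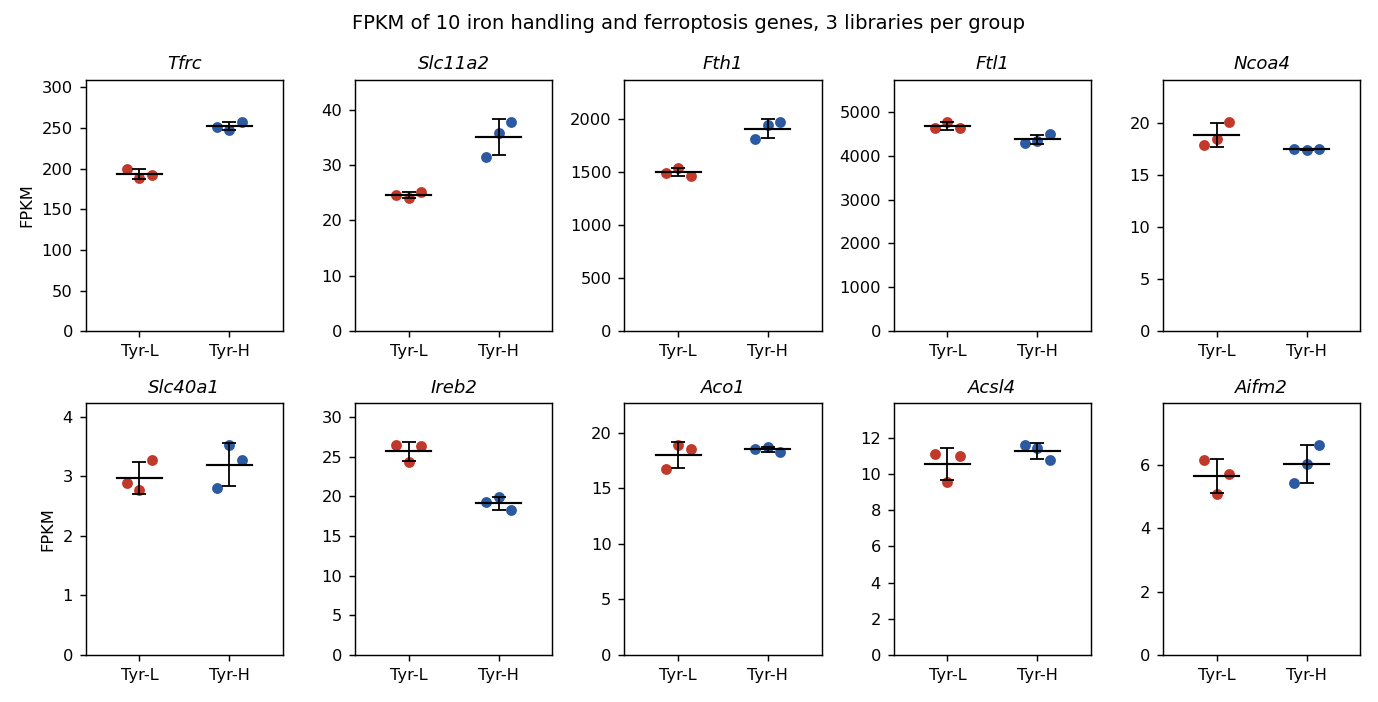
FPKM of each gene (linear axis from 0) in the 3 Tyr-L (red) and 3 Tyr-H (blue) libraries, with the mean as a line and the SD as a bar. *Tfrc*, *Slc11a2* and *Fth1* sit higher in every Tyr-H library, *Ireb2* sits lower, and *Slc40a1*, *Aco1*, *Acsl4* and *Aifm2* overlap.

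Both ferritin chains were among the most abundant transcripts of these cells, and the order of the 10 genes covered a wide range. *Ftl1* ranked 10 and *Fth1* ranked 21 of all listed genes by mean FPKM, and together they made up 1.34 to 1.40% of the summed FPKM in Tyr-L libraries and 1.29 to 1.31% in Tyr-H libraries, without overlap. *Tfrc* ranked 272. At the other end *Slc40a1* was the lowest of the 10 in both groups, at 2.77 to 3.28 FPKM in Tyr-L and 2.80 to 3.52 FPKM in Tyr-H libraries. In Tyr-L cells the order was *Ftl1*, *Fth1*, *Tfrc*, *Ireb2*, *Slc11a2*, *Ncoa4*, *Aco1*, *Acsl4*, *Aifm2*, *Slc40a1*, and the neighbours *Ireb2* and *Slc11a2*, and *Ncoa4* and *Aco1*, overlapped between libraries. In Tyr-H cells *Slc11a2* stood apart above *Ireb2*, and *Ireb2* and *Aco1* were the neighbours that overlapped.

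*Tfrc* (ENSMUSG00000022797, chromosome 16, 32608920 to 32632794, plus strand of GRCm38) encodes the transferrin receptor, the entry point of transferrin-bound iron. Tyr-L libraries 1 to 3 gave 199.9, 188.4 and 191.7 FPKM, and Tyr-H libraries 1 to 3 gave 250.8, 247.6 and 257.7 FPKM. Every Tyr-H library was above every Tyr-L library, and the means were 193 ± 5.92 and 252 ± 5.13 FPKM (SD, n = 3 each). The log2 fold change was 0.38 (SE, the standard error, 0.03, 95% interval 0.31 to 0.46, adjusted p = 1.6e-05 from limma). Over the alternatives of scaling, filtering and left-out libraries it ranged from 0.29 to 0.69 and kept its direction. The value of 0.69 came after the GC and length correction. The longest *Tfrc* transcript has 4890 nt and 39.8% GC.

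*Slc11a2* (ENSMUSG00000023030, chromosome 15, 100387898 to 100425072, minus strand) encodes DMT1, which carries ferrous iron out of the endosome. Its libraries had 24.51, 24.08 and 25.08 FPKM in Tyr-L and 31.42, 35.82 and 37.82 FPKM in Tyr-H cells. Within Tyr-L these values lay close together and within Tyr-H they spread more widely above them, with coefficients of variation of 2.03% and 9.36%. With a log2 fold change of 0.51 (SE 0.06, 95% interval 0.36 to 0.65, adjusted p = 0.00012 from limma), it had the largest change of the 10 genes in the values as deposited. *Tfrc* changed more after the GC and length correction (0.69 against 0.64), and *Ireb2* after rescaling to the same total (-0.52 against 0.41). The tables give 1 value per gene, so the transcripts with and without the match in the 3′ UTR were not separated. *Slc11a2* shares 402 exonic bases with *Gm5475* on the opposite strand, which reached 0.0201 FPKM in 1 library and was not listed in the others.

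*Fth1* (ENSMUSG00000024661, chromosome 19, 9980598 to 9985098, plus strand) encodes the ferritin heavy chain, the subunit with ferroxidase activity. It stood at 1491, 1538 and 1462 FPKM in Tyr-L and at 1805, 1938 and 1973 FPKM in Tyr-H cells, without overlap. Its log2 fold change was 0.35 (SE 0.05, 95% interval 0.24 to 0.45, adjusted p = 0.00016 from limma). Quantile normalization removed this difference (log2 fold change 0.01, adjusted p = 0.92).

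*Ftl1* (ENSMUSG00000050708, chromosome 7, 45457944 to 45459884, minus strand) encodes the light chain, which favours mineral formation inside the shell. It had 4641, 4776 and 4621 FPKM in Tyr-L and 4291, 4346 and 4490 FPKM in Tyr-H libraries, so that the Tyr-H libraries lay below. The log2 fold change of -0.10 (95% interval -0.20 to 0.01, adjusted p = 0.095 from limma) did not pass. It passed as lower after rescaling to the same total (-0.19), after quantile normalization (-0.45) and without Tyr-H replicate 3 (-0.12), and was 0.06 after median ratio scaling. Its values are uncertain because *Ftl1-ps1*, a locus named as a pseudogene of it (chromosome 13, 44.1 to 53.6 FPKM), could share reads, and because *Gm10252* overlaps it on the opposite strand with 0.637 to 1.88 FPKM. The microRNA gene *Gm22133* also overlaps *Ftl1*.

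*Ncoa4* (ENSMUSG00000056234, chromosome 14, 32159865 to 32179855, plus strand) encodes the receptor that delivers ferritin to autophagosomes for iron release. It had 17.91, 18.48 and 20.11 FPKM in Tyr-L and 17.46, 17.41 and 17.45 FPKM in Tyr-H libraries. The Tyr-H libraries lay just below the lowest Tyr-L library, and the log2 fold change of -0.11 (95% interval -0.22 to 0.01, adjusted p = 0.098 from limma) did not pass. It passed as lower after rescaling to the same total (-0.20) and was above 0 after median ratio scaling (0.04), quantile normalization (0.02) and the GC and length correction (0.14, where it passed as higher with an adjusted p of 0.048, or 0.059 with the replicate block). *Slc40a1* (ENSMUSG00000025993, chromosome 1, 45908068 to 45926523, minus strand) encodes ferroportin, the iron exporter. Its libraries overlapped, with 2.887, 2.766 and 3.278 FPKM in Tyr-L and 2.803, 3.518 and 3.264 FPKM in Tyr-H cells. Its log2 fold change was 0.10 with a 95% interval of -0.16 to 0.36 (adjusted p = 0.50 from limma), so changes of either sign lay within the interval. It was 0.35 and passed after the GC and length correction.

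*Ireb2* (ENSMUSG00000032293, chromosome 9, 54863789 to 54912530, plus strand) encodes iron regulatory protein 2, which is degraded when iron is plentiful. Its levels were 26.44, 24.32 and 26.32 FPKM in Tyr-L and 19.35, 19.86 and 18.25 FPKM in Tyr-H libraries. No Tyr-H library reached the lowest Tyr-L library, and the log2 fold change was -0.42 (SE 0.05, 95% interval -0.54 to -0.31, adjusted p = 9.7e-05 from limma). After the GC and length correction it was -0.07 (adjusted p = 0.12). The longest *Ireb2* transcript has 5770 nt and 39.0% GC, against medians of 3061 nt and 49.4% over the tested genes. *Aco1* (ENSMUSG00000028405, chromosome 4, 40143081 to 40198338, plus strand) encodes iron regulatory protein 1, which serves as cytosolic aconitase when it carries an iron-sulfur cluster. It had 16.69, 18.85 and 18.52 FPKM in Tyr-L and 18.55, 18.69 and 18.26 FPKM in Tyr-H libraries. These overlapped, and the log2 fold change was 0.04 (95% interval -0.08 to 0.16, adjusted p = 0.55 from limma). It passed as higher after median ratio scaling (0.19) and quantile normalization (0.17), and was -0.05 after rescaling to the same total.

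*Acsl4* (ENSMUSG00000031278, chromosome X, 142317993 to 142390535, minus strand) encodes the acyl-CoA synthetase that activates arachidonic acid for phospholipids and so provides substrate for ferroptosis. The libraries overlapped, at 11.10, 9.561 and 11.00 FPKM in Tyr-L and 11.58, 11.43 and 10.77 FPKM in Tyr-H cells. Its log2 fold change of 0.10 (95% interval -0.06 to 0.25, adjusted p = 0.27 from limma) went to 0.43 and passed after correction for GC content and length (adjusted p = 0.00015). Its longest transcript has 5280 nt and 39.0% GC. *Aifm2* (ENSMUSG00000020085, chromosome 10, 61715263 to 61739260, plus strand) encodes FSP1, which reduces coenzyme Q and opposes ferroptosis apart from glutathione. Its values were 6.145, 5.069 and 5.718 FPKM in Tyr-L and 5.420, 6.013 and 6.613 FPKM in Tyr-H libraries, again overlapping. The log2 fold change was 0.09 (95% interval -0.13 to 0.31, adjusted p = 0.46 from limma). It passed as higher after quantile normalization (0.27) and was -0.0027 after rescaling to the same total. *Aifm2* shares 233 exonic bases with *H2afy2* on the opposite strand, which had 0.0152 to 0.0695 FPKM.

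**Figure D2:**
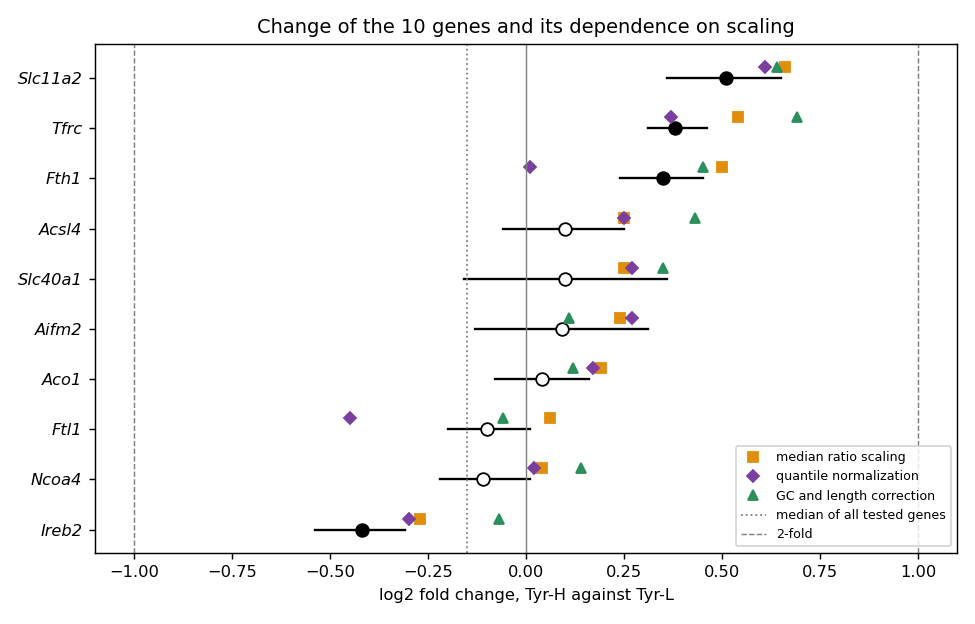
log2 fold change of each gene (black circles, filled at an adjusted p of at most 0.05) with its 95% interval, and its value under median ratio scaling (orange squares), quantile normalization (purple diamonds) and the GC and length correction (green triangles). *Slc11a2* and *Tfrc* lay above 0 in each, *Fth1* reached 0.01 after quantile normalization, *Ireb2* came to -0.07 after the GC and length correction, and no gene reached the 2-fold lines.

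Ratios of 2 genes within a library do not depend on a scaling factor between libraries, and 6 were compared. *Fth1* to *Ftl1* was 0.321, 0.322 and 0.316 in Tyr-L and 0.421, 0.446 and 0.439 in Tyr-H libraries, so the heavy chain gained on the light chain in every Tyr-H library. The ratio was 1.36-fold higher in Tyr-H cells, a difference of 0.44 on the log2 scale. In contrast *Tfrc* to *Fth1*, a gene of uptake against a gene of storage, overlapped at 0.122 to 0.134 in Tyr-L and 0.128 to 0.139 in Tyr-H libraries. *Tfrc* to *Slc40a1*, uptake against export, was 58.5 to 69.2 in Tyr-L and 70.4 to 89.5 in Tyr-H libraries, without overlap. *Ireb2* to *Aco1* went from 1.58, 1.29 and 1.42 in Tyr-L to 1.04, 1.06 and 0.999 in Tyr-H libraries, close to equal levels per length in Tyr-H cells. The log2 difference of that ratio was -0.46, the same size as that of *Ncoa4* to *Fth1*, the ferritin receptor against its cargo, also -0.46. Settings that act on genes unequally moved several ratios. After the GC and length correction the log2 difference was -0.19 for *Ireb2* to *Aco1* and 0.24 for *Tfrc* to *Fth1*, and after quantile normalization it was 0.01 for *Ncoa4* to *Fth1*, 0.10 for *Tfrc* to *Slc40a1* and 0.37 for *Tfrc* to *Fth1*. *Acsl4* to *Aifm2* overlapped (log2 difference 0.31 after the GC and length correction), with 1.81 to 1.92 in Tyr-L and 1.63 to 2.14 in Tyr-H libraries. For the 4 ratios without overlap the exact permutation test gave p = 0.1, two-sided, the smallest that 3 against 3 can give (0.15 after Benjamini-Hochberg over the 6 ratios), and for *Tfrc* to *Fth1* and *Acsl4* to *Aifm2* it gave 0.6 and 0.9.

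**Figure D3:**
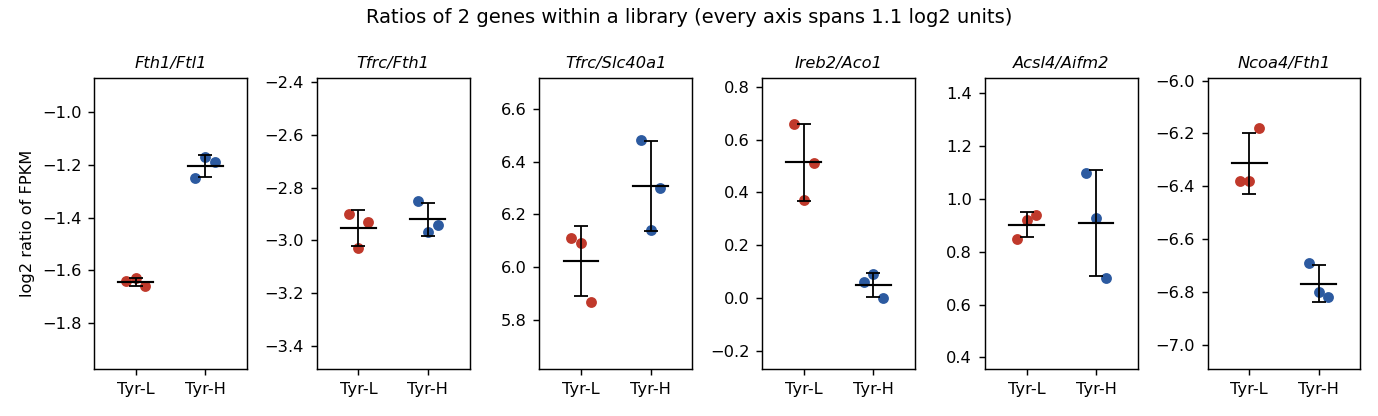
log2 ratio of the FPKM of 2 genes within each library, Tyr-L in red and Tyr-H in blue, with mean and SD; the axes differ in position and not in span. *Fth1*/*Ftl1* and *Tfrc*/*Slc40a1* were higher and *Ireb2*/*Aco1* and *Ncoa4*/*Fth1* lower in every Tyr-H library, while *Tfrc*/*Fth1* and *Acsl4*/*Aifm2* overlapped.

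The rest of the pathway was described with 11 lists by role, in which 104 tested genes other than the 10 gave 39 higher, 31 lower and 34 that did not pass, with a median log2 fold change of 0.06. These are 37.5% higher and 29.8% lower, against 17.9% and 39.9% of all tested genes. Since the lists were chosen with earlier results of these data known, the comparison is a description and tests nothing. The counts were 57 and 14 after median ratio scaling, 51 and 17 after quantile normalization, 58 and 14 after the GC and length correction, and 27 and 41 of 108 after rescaling to the same total. Called at 2-fold were 9 (8.65%, against 8.75% of all tested genes), all higher in Tyr-H cells, where 2.96% of all tested genes were called higher. After median ratio scaling 11 were called, all higher, where 544 of 14306 tested genes were called higher and 580 lower. After the GC and length correction 12 were called, all higher, where 548 of 14304 were called higher and 506 lower. The counts by list below include those of the 10 genes that belong to it. After rescaling to the same total more genes fell than rose in each list except import, export, and markers and other regulators, and after median ratio scaling more rose than fell in each except the control of iron regulatory proteins. Among genes of transferrin-bound and other iron import, 9 of 11 tested genes rose and 0 fell, with a median of 0.38. After rescaling to the same total, 7 of 13 rose and 1 fell. *Steap1*, of a family of endosomal and surface metalloreductases, had 7.76, 8.10 and 8.02 FPKM in Tyr-L and 21.41, 22.25 and 24.85 FPKM in Tyr-H libraries (log2 fold change 1.51, SE 0.06, adjusted p = 2.8e-07 from limma). *Steap2*, of the same family, rose from 8.38 ± 0.113 to 14.6 ± 0.551 FPKM, and *Slc39a14*, which encodes the iron and zinc importer ZIP14, from 23.4 ± 0.716 to 43.6 ± 0.905 FPKM (SD, n = 3 each). *Slc39a14* (log2 fold change 0.89) was also called after median ratio scaling (1.05), quantile normalization (1.00) and the GC and length correction (1.03), and *Steap2* (0.79) after the GC and length correction (1.24). *Lcn2*, which encodes a protein that binds iron carriers called siderophores, was listed in no Tyr-L library and reached 0.709, 1.14 and 1.15 FPKM in Tyr-H cells. It passed the filter on low values through the Tyr-H libraries alone, so its place among the genes that rose and were called adds nothing to those counts. With the filter raised to a mean of 1 FPKM, which leaves it out, 8 of 9 import genes rose with 1 called. Then 8 of 101 tested pathway genes other than the 10 were called, all higher. Over all genes at that filter 247 were called higher and 393 lower. The lowest log2 fold change of the list was that of *Mcoln1*, a lysosomal channel, at -0.08 (adjusted p = 0.19 from limma). It passed as lower after rescaling to the same total (-0.17) and was 0.07 after median ratio scaling.

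The lists of storage, export and regulation were short. Of 6 tested genes of ferritin storage and iron chaperoning 2 rose and 2 fell (median -0.10). *Pcbp1*, which hands iron to ferritin, fell from 283 ± 7.94 to 234 ± 2.56 FPKM (SD, n = 3 each) and shares exonic bases with *1600020E01Rik*. Its log2 fold change was -0.27, and -0.12 after median ratio scaling. Only *Slc40a1* and *Cp* were tested among genes of export and its systemic control. *Cp*, which encodes the ferroxidase ceruloplasmin and overlaps *Hps3* on the opposite strand, had 19.02, 24.50 and 22.69 FPKM in Tyr-L and 43.08, 49.83 and 49.63 FPKM in Tyr-H libraries (log2 fold change 1.11, adjusted p = 9.6e-06 from limma). Of the iron regulatory proteins and the genes that control them, 5 in all, 0 rose and 2 fell, *Ireb2* and the ubiquitin ligase subunit *Skp1a*, but 2 rose and 2 fell after median ratio scaling, and 2 rose and 0 fell after the GC and length correction (1 and 0 with the replicate block). *Skp1a* was -0.27, and -0.06 after that correction (adjusted p = 0.14 from limma). Mitochondrial iron and iron-sulfur assembly had 7 of 21 higher and 3 lower. These counts moved with the scaling, to 14 higher and 1 lower after median ratio scaling and to 4 higher and 7 lower after rescaling to the same total. Its largest change was in *Hspa9*, the mitochondrial chaperone that assists cluster transfer, which rose from 284 ± 5.48 to 513 ± 17.8 FPKM (SD, n = 3 each), and its lowest log2 fold change was in *Cisd2* (-0.34). *Hspa9* went from 0.85 on the log2 scale to 1.00 after median ratio scaling and 1.02 after the GC and length correction, and was called there. *Cisd2* was -0.19 after median ratio scaling and -0.13 after the GC and length correction, where it did not pass with the replicate block (adjusted p = 0.072 from limma) and the list had 12 higher and 0 lower. The list of cytosolic iron-sulfur assembly had 2 of 11 higher and 5 lower (6 and 3 after median ratio scaling). It had 3 lower with the replicate block and without Tyr-L replicate 1 (where 1 was higher), Tyr-L replicate 2, Tyr-L replicate 3 or Tyr-H replicate 1. Its log2 fold changes ran from *Fam96b* (0.35), which overlaps *1700082M22Rik* on the opposite strand, to *Ndor1* (-0.73), whose annotated copies overlap each other.

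Among haem genes 1 was called. In haem synthesis 3 of 9 rose and 3 fell, from *Cpox* (log2 fold change 0.52) to *Ppox* (-0.64), both of which overlap another gene. These counts were 4 and 1 after median ratio scaling or the GC and length correction, and 2 and 5 after rescaling to the same total. In haem handling 2 of 8 rose and 4 fell (3 and 1 after median ratio scaling). *Hmox1*, which encodes the haem oxygenase that frees iron from haem, had 19.99, 20.02 and 20.38 FPKM in Tyr-L and 76.89, 78.07 and 80.74 FPKM in Tyr-H libraries. This was the called gene of the list, with a log2 fold change of 1.96 (SE 0.04, adjusted p = 1.1e-08 from limma), and *Blvrb*, which encodes a biliverdin reductase of the next step, fell from 30.5 ± 1.62 to 22.1 ± 1.05 FPKM (SD, n = 3 each). On the log2 scale *Blvrb* changed by -0.47, or by -0.31 after median ratio scaling.

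The ferroptosis lists held a few called genes, all higher, and smaller changes whose balance of signs moved with the scaling. Over all tested genes 17.9% rose and 39.9% fell, or 27.9% and 27.0% after median ratio scaling. Among lipid genes 5 of 14 rose and 5 fell (9 and 2 after median ratio scaling). *Cyb5r1*, a reductase that promotes lipid peroxidation, rose from 21.6 ± 0.44 to 69.6 ± 5.06 FPKM and *Mboat1*, a phospholipid acyltransferase, fell from 8.41 ± 0.34 to 5.59 ± 0.372 FPKM (SD, n = 3 each). Of 17 suppressors 5 rose and 5 fell (6 and 3 after median ratio scaling), where 3 rose without Tyr-L replicate 1 and 3 fell without Tyr-H replicate 3. *Slc7a11*, the cystine importer that feeds glutathione synthesis, had 13.76, 12.48 and 13.39 FPKM in Tyr-L and 40.46, 46.72 and 47.47 FPKM in Tyr-H libraries (log2 fold change 1.75, adjusted p = 2.1e-07 from limma). Its partner subunit *Slc3a2* rose from 80.5 ± 5.36 to 205 ± 20.1 FPKM, and *Gch1*, the first enzyme of tetrahydrobiopterin synthesis, from 0.94 ± 0.187 to 3.74 ± 0.275 FPKM (SD, n = 3 each). *Gpx4*, the peroxidase that repairs phospholipid hydroperoxides, averaged 79.2 ± 3.73 (Tyr-L) and 88.8 ± 9.50 FPKM (Tyr-H, SD, n = 3 each) and did not pass (95% interval of the log2 fold change 0.00 to 0.32, adjusted p = 0.073 from limma). It passed as higher after median ratio scaling (0.31), quantile normalization (0.22) and the GC and length correction (0.21), and without Tyr-H replicate 2 (0.21). The lowest log2 fold change of the list was -0.52, in *Pdss1*, of coenzyme Q synthesis, which overlaps *Abi1*, and it was -0.26 after the GC and length correction. In the list of markers and other regulators 6 of 10 rose and 3 fell, and 1 fell after median ratio scaling and without Tyr-L replicate 1, Tyr-L replicate 3, Tyr-H replicate 2 or Tyr-H replicate 3. *Chac1*, a glutathione-degrading enzyme induced by amino acid stress, had 4.992, 9.365 and 5.820 FPKM in Tyr-L and 33.39, 45.80 and 45.76 FPKM in Tyr-H libraries (log2 fold change 2.65, adjusted p = 7.6e-06 from limma), and *Bach1*, a haem-binding repressor of *Hmox1*, fell by 0.45 on the log2 scale. The value of *Bach1* was -0.27 after quantile normalization and -0.19 after the GC and length correction, where it did not pass with the replicate block (adjusted p = 0.062 from limma) and 0 genes of the list fell.

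**Figure D4:**
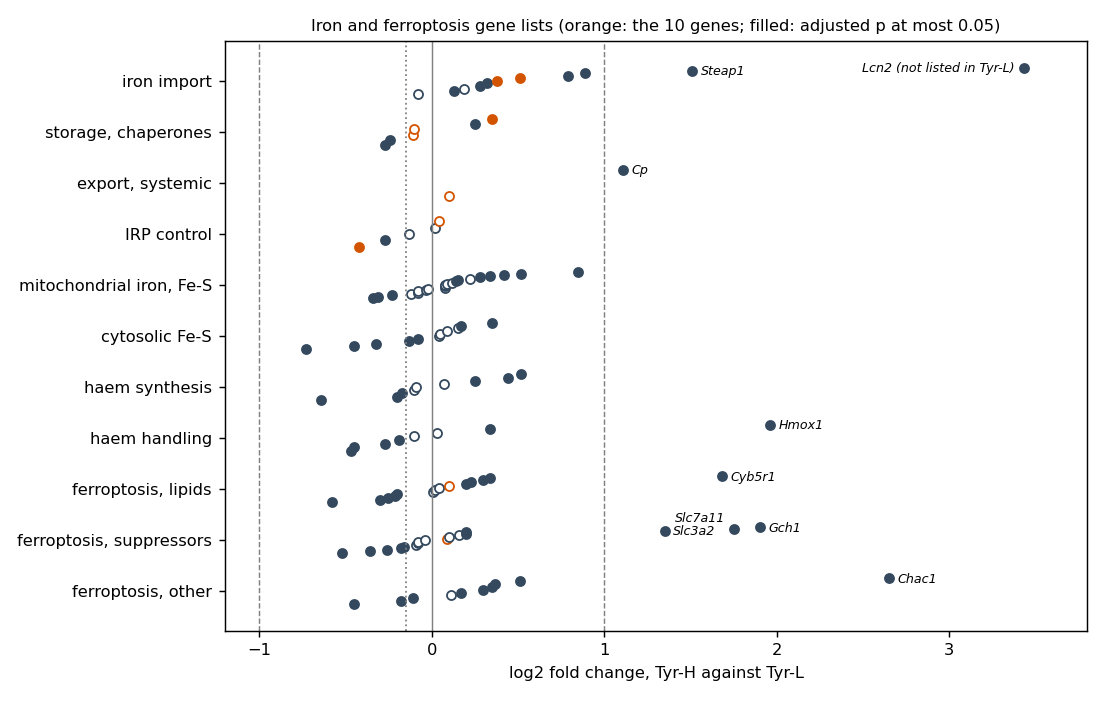
log2 fold change of each tested gene in 11 lists (the 10 genes in orange, others in dark grey; filled circles passed at an adjusted p of at most 0.05; dotted line, median of all tested genes; dashed lines, 2-fold). Labelled genes were called, all higher in Tyr-H cells, and the position of *Lcn2*, not listed in Tyr-L, depends on the pseudocount.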

How the data were processed

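The authors deposited 1 table of FPKM values per library, 3 of Tyr-L and 3 of Tyr-H cells; the submitters' notes name Trimmomatic, HISAT, HISAT2 and the build GRCm38.p6, and the annotation, quantifier and strand setting are not given in the sources used here. Group and replicate number came from the labels. Unlisted genes were taken as 0, and genes whose mean reached 0.1 FPKM were tested on log2(FPKM + 0.1) with limma 3.58.1 in R 4.3.3 (variance trend, Benjamini-Hochberg). Fold changes on this scale understate those of low genes. Low values were not whole multiples of a common step, so no count test was run. Coordinates and transcripts came from GENCODE M21 (GRCm38), which held 20709 of 20788 identifiers, all on the chromosome of the tables. Python 3.11.15 with scipy 1.17.1 gave the exact permutation tests.

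The 10 genes and the lists were chosen with earlier results of these data known. Beyond the 10 genes, those named are the called genes and both extremes (mean of at least 1 FPKM) of each list. Genes overlapping the 10 and copies named after them are named too. So are the 3 genes most correlated with *Slc11a2*, which changed most in the values as deposited. *Steap2*, *Steap3*, *Slc39a14*, *Skp1a* and *Gpx4* were added after their values were seen. The fit was tested on simulated data. Alternatives were the pseudocount, the filter, 3 scalings, the variance trend, the replicate block, a GC and length correction with and without the block, leaving out each library, and no fold threshold. Quantile normalization and the GC and length correction of the ratios were added after seeing the data.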

Additional observations from a re-analysis of the deposited data

How the results depend on the processing

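Of the 10 genes, *Tfrc* and *Slc11a2* kept their direction and an adjusted p of at most 0.05 (limma) under every alternative run. *Fth1* lost it after quantile normalization (log2 fold change 0.01). *Ireb2* lost it after the GC and length correction (-0.07, adjusted p = 0.12, and 0.20 with the replicate block). Rescaling to the same total gave -0.19 for *Ftl1* and -0.20 for *Ncoa4*, which then passed, and reversed *Aco1* (-0.05) and *Aifm2* (-0.0027). Median ratio scaling reversed *Ftl1* (0.06) and *Ncoa4* (0.04), and *Aco1* (0.19) and *Acsl4* (0.25) passed. Quantile normalization reversed *Ncoa4* (0.02), and *Ftl1* (-0.45), *Aco1* (0.17), *Acsl4* (0.25) and *Aifm2* (0.27) passed, so 7 of the 10 did. With the GC and length correction, with or without the replicate block, *Acsl4* was 0.43 and *Slc40a1* 0.35 and both passed, and *Ncoa4* reversed to 0.14 (it passed without the block, adjusted p = 0.048, and not with it, 0.059). These settings moved the median over all genes from -0.15 to between -0.25 and 0.00; the cause of the single changes was not tested. With each library left out, *Ftl1* ranged from -0.12 to -0.08 (it passed without Tyr-H replicate 3) and *Aco1* from -0.01 to 0.07, reversed without Tyr-L replicate 1. *Mcoln1* reversed after median ratio scaling (0.07), quantile normalization (0.07) and the GC and length correction with or without the block (0.0019).

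For the ratios, in alternatives chosen after seeing the data, the GC and length correction gave log2 differences of 0.51 (*Fth1*/*Ftl1*), 0.24 (*Tfrc*/*Fth1*), -0.19 (*Ireb2*/*Aco1*), 0.31 (*Acsl4*/*Aifm2*) and -0.31 (*Ncoa4*/*Fth1*). Quantile normalization gave 0.37 (*Tfrc*/*Fth1*) and 0.10 (*Tfrc*/*Slc40a1*) and reversed *Ncoa4*/*Fth1* (0.01).

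Of all tested genes 1254 were called, 388 with a pseudocount of 1 FPKM, 640 among genes whose mean reached 1 FPKM, and 8292 without the fold threshold, at which 4 of the 10 passed. The replicate block alone gave 1258 called genes. Same-numbered libraries shared little beyond their number (correlations of their deviations 0.0223, 0.0132 and -0.0834), and no blocked fit without the GC and length correction changed a call of the 10.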

Other observations

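A paired iron-responsive hairpin, searched as above, was found in a UTR of genes beyond the 10, a set made after the values of the 10 were seen. Of 22 tested genes with the hairpin in the 5′ UTR, 3 rose and 8 fell in Tyr-H cells (median log2 fold change -0.11). Of 106 with it in the 3′ UTR, 16 rose and 48 fell (median -0.14). The median over all tested genes was -0.15, and 17.9% of them rose and 39.9% fell. After median ratio scaling 7 rose and 5 fell of the first set and 29 and 28 of the second, against 27.9% and 27.0% of all tested genes.

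Over the 6 libraries, the genes whose log2 level followed that of *Slc11a2* most closely among 11025 with a mean of at least 1 FPKM were *Polr3e* (Pearson r 0.9981), *Rbm3* (0.9978) and *Gpr85* (0.9971), a description in which the difference between the groups enters. *Polr3e*, a subunit of RNA polymerase III, rose from 13.7 ± 0.106 to 15.3 ± 0.414 FPKM. *Rbm3*, a cold-inducible RNA-binding protein, rose from 423 ± 3.19 to 495 ± 17.7 FPKM, and *Gpr85*, an orphan receptor, from 1.35 ± 0.0568 to 2.28 ± 0.315 FPKM (SD, n = 3 each).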
